A study of Mus musculus with 12 samples.

Results

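A set of 8 genes that encode neurotrophic factors and their receptors were followed through loss of the nerve and loss of the histone variant H2A.Z in mouse muscle. They were chosen by gene symbol, as Ntf5, Ntf3, Bdnf, Gdnf, Cntf, Ngfr, Ntrk2 and Ntrk3, from a table of 31057 genes. Each symbol stood on 1 row, and all 8 members were among the 17201 genes that passed the filter on low counts. Of the 8, 5 encode ligands and 3 encode receptors.

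Neurotrophic factors are proteins that support the survival, growth and synapses of motor and sensory neurons, and skeletal muscle is one of their sources. The neurotrophins are made as precursors and cut to mature forms. Mature neurotrophins signal through Trk receptor tyrosine kinases, and the p75 receptor encoded by Ngfr binds all neurotrophins and, with sortilin-family co-receptors, their precursors. GDNF signals through the kinase Ret and a GFRα co-receptor, and CNTF through its own α receptor with the gp130 and LIF receptor chains.

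Total RNA was sequenced from the tibialis anterior, a fast muscle of the lower leg, of C57BL/6 mice aged 7 weeks. The dKO group carried H2A-Z.1-/- :H2A-Z.2-/- with HSA Cre+, and the WT group (HSA Cre WT) carried the floxed alleles H2A-Z.1flox/flox and H2A-Z.2 flox/flox with no Cre. The left sciatic nerve was cut at 2 places, and the denervated muscle and the unoperated muscle of the opposite leg were taken 48 h later. This gave dKO denervated, dKO innervated, WT denervated and WT innervated groups with 3 libraries each. HSA is the promoter of a skeletal muscle actin gene and drives Cre in muscle fibres, so nerve, connective tissue, vessel and immune cells of the same muscle are not its target. The operated side was always the left, so surgery, side and loss of the nerve cannot be told apart. In whole muscle, fewer cells of a type and less RNA per cell cannot be told apart either.

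The 12 libraries held 55668606 to 87753152 counts, and 3 counts, the limit used for a gene at 0, came to 0.0315 to 0.0549 CPM, the unit of counts scaled to library size. The summed level of 8 muscle fibre genes, Acta1, Ckm and Ttn among them, was 186570 to 206079 CPM in dKO denervated against 271058 to 271562 in dKO innervated legs, and 191166 to 197844 CPM in WT denervated against 256340 to 322308 in WT innervated legs, without overlap. Of these 8 genes, 4 fell after denervation in dKO and 6 in WT, and none rose, beside 20.2% of all genes called lower in dKO and 21.0% in WT. H2afv, which encodes H2A.Z.2, averaged 5.00 ± 0.35 CPM in dKO denervated and 5.67 ± 0.53 in dKO innervated legs, against 20.7 ± 1.6 CPM in WT denervated and 22.1 ± 3.2 in WT innervated legs (SD, n = 3 each). H2afz, which encodes H2A.Z.1, averaged 6.56 ± 1.11 and 8.39 ± 1.60 CPM in dKO denervated and innervated legs, against 9.72 ± 1.92 and 13.5 ± 2.4 CPM in WT denervated and innervated legs. H2afv was called lower in dKO in both legs (edgeR adjusted p = 5.23e-06 denervated, 8.89e-06 innervated), and H2afz was not (0.287 and 0.175). In innervated legs H2afz became called as lower with an additive replicate block (log2 fold change -0.68, adjusted p = 0.0397), with DESeq2 (adjusted p = 0.0359) and without the filter (0.00528), and in denervated legs without the filter (0.0434). An earlier reading of these data set apart 2 libraries by the makeup of their RNA, dKO innervated 1 and WT denervated 2. No member's call depended on them, and values without both are given where a direction did.

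The promoters of Gdnf and Ngfr are shown because these 2 genes rose together after denervation, as described below. RefSeq (GRCm38.p6) promoter windows of 300 bases, from 250 before to 50 after a gene start, were matched by symbol for 6 of the 8 members, with 14 windows in all. The Gdnf windows lie on the plus strand at chr15:7809798-7810097 and chr15:7813477-7813776, and the Ngfr window on the minus strand at chr11:95587649-95587948. They run 5′ to 3′ in gene direction, and capitals mark every match to CANNTG, the E-box hexamer bound by basic helix-loop-helix proteins.
Gdnf window 1: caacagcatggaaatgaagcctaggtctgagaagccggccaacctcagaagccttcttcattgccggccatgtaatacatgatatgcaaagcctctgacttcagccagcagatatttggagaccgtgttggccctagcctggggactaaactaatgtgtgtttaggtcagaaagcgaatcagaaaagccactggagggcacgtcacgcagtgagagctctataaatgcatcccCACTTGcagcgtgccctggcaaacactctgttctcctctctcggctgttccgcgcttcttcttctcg
Gdnf window 2: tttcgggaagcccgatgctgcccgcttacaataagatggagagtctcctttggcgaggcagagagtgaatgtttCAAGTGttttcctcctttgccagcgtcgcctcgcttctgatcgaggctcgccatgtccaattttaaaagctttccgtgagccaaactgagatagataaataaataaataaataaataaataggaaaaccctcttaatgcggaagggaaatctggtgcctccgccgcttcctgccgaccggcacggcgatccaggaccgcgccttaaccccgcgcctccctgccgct
Ngfr: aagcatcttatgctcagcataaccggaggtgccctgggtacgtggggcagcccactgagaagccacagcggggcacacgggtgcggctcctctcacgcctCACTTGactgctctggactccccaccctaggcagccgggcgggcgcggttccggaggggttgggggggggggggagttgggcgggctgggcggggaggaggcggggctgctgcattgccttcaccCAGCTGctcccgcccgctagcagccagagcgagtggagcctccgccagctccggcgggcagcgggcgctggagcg
CACTTG, or CAAGTG, the same site on the other strand, stands once in each of the 3 windows, and Ngfr also holds CAGCTG. The hexamer CACTTG was singled out after the sequences were seen. Its presence in the windows of the other members was not read out, so these matches do not set the risen genes apart from them. On both strands, CACTTG occurs in 13.6% of 32851 promoter windows of this length, CANNTG in 72.3% and CAGCTG, which is one form of CANNTG, in 16.3%. TGACGTCA (1.79% of windows), TGANTCA (7.81%) and the MEF2 consensus (3.19%) had no match in the 3 windows. These matches describe letters, not binding.

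Denervation changed some ligands and receptors strongly and others not detectably. Gdnf and Ngfr rose, Ntf5, Bdnf and Ntrk2 fell, and Ntf3, Cntf and Ntrk3 did not pass the test, with the same calls in dKO and in WT. A gene was called at an edgeR quasi-likelihood adjusted p below 0.05 over all 17201 genes tested. By this rule 5 of 8 members were called in each genotype, beside 42.0% of all genes in dKO and 44.0% in WT. The 2 called higher stand beside 21.9% of genes in dKO and 23.1% in WT, and the 3 called lower beside 20.2% and 21.0%. The median log2 change over the 8 was -0.02 in dKO and -0.01 in WT, beside -0.03 and -0.00 over all genes. By size, Gdnf and Ngfr were among the called rises of at least 1 on the log2 scale, which made up 5.62% of genes in dKO and 5.70% in WT. Ntf5 was among the called falls of that size, 5.81% in dKO and 6.10% in WT. Denervated and innervated values did not overlap for 5 of the 8 members in each genotype, beside 52.6% of all genes in dKO and 51.5% in WT.

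**Figure D1:**
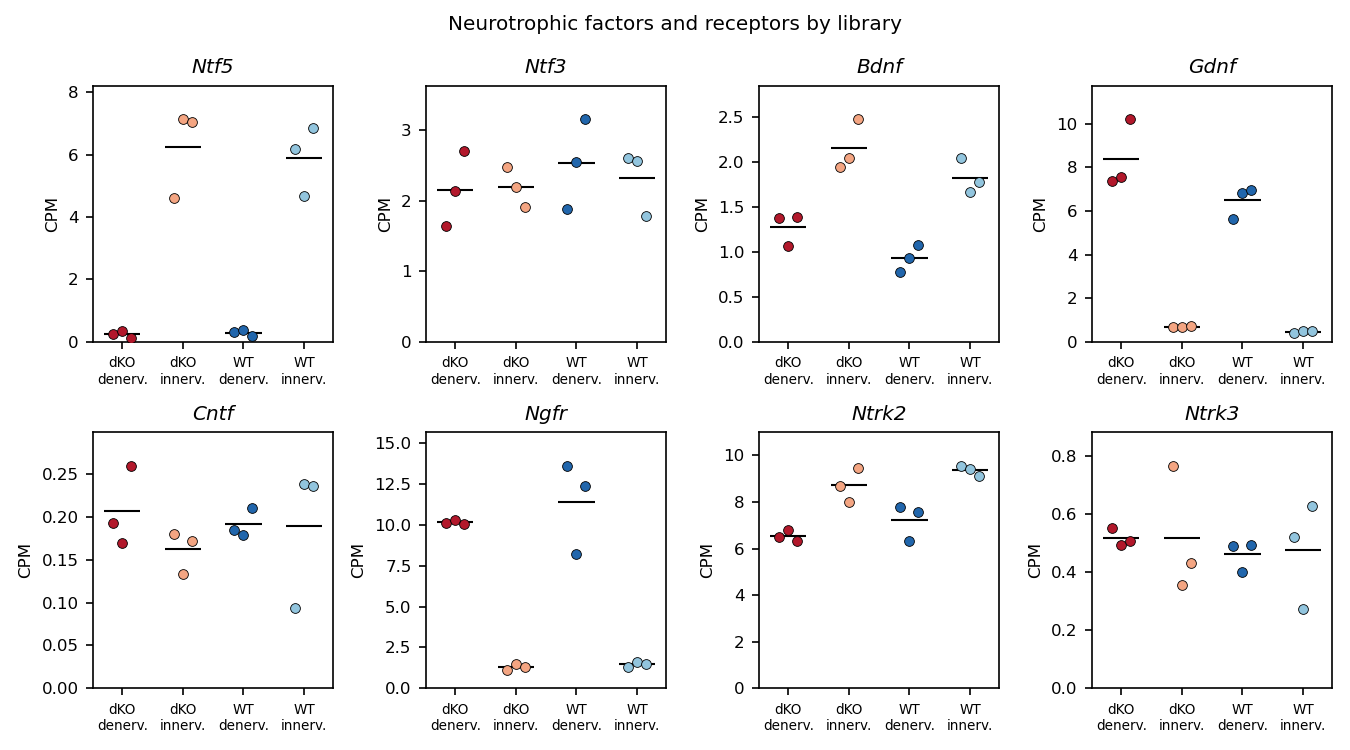
Level of each member in each of the 12 libraries, in CPM on a linear axis that starts at 0, with 1 point per library and a line at the group mean. Gdnf and Ngfr sit higher and Ntf5, Bdnf and Ntrk2 lower in denervated legs of both genotypes, without overlap, while the groups of Ntf3, Cntf and Ntrk3 overlap.

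Ntf5 encodes neurotrophin-4/5, a ligand of the TrkB receptor (GRCm38 chr7:45413695-45417179, plus strand). It had 0.248, 0.339 and 0.130 CPM in the 3 dKO denervated libraries, against 4.60, 7.13 and 7.04 CPM in dKO innervated ones. In WT it had 0.318, 0.378 and 0.185 CPM in denervated legs, against 6.20, 4.67 and 6.85 CPM in innervated ones. Every denervated library lay far below every innervated one, with 10 to 36 counts against 255 to 479, and every library stayed above the limit of 3 counts. The log2 fold change was -4.71 (SE 0.32, adjusted p = 1.67e-07) in dKO and -4.31 (SE 0.30, adjusted p = 2.49e-07) in WT. Denervated legs thus held 3.81% of the innervated level in dKO and 5.04% in WT.

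Bdnf encodes brain-derived neurotrophic factor, the other main TrkB ligand (chr2:109674700-109727007, plus strand). Its levels were 1.38, 1.07 and 1.39 CPM in dKO denervated legs, against 1.95, 2.05 and 2.48 CPM in dKO innervated legs. The WT values were 0.781, 0.935 and 1.07 CPM in denervated legs, against 2.05, 1.67 and 1.78 CPM in innervated legs. Groups were apart in both genotypes, and the denervated level was 59.3% of the innervated one in dKO (log2 fold change -0.75, SE 0.17, adjusted p = 0.00332) and 50.8% in WT (-0.98, SE 0.18, adjusted p = 0.000592). An antisense gene, Gm45346, covers 14.4% of the exonic bases of Bdnf, and the strand setting of the counting is not given in the sources used here.

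Gdnf encodes glial cell line-derived neurotrophic factor, a survival factor for motor neurons (chr15:7810846-7837575, plus strand), and had the largest rise of the 8. It reached 7.36, 7.53 and 10.2 CPM in dKO denervated legs, against 0.676, 0.700 and 0.723 CPM in dKO innervated legs. WT denervated legs had 5.65, 6.84 and 6.97 CPM, against 0.401, 0.494 and 0.487 CPM in WT innervated legs. The counts behind these values were 427 to 785 in denervated and 27 to 47 in innervated libraries, with a wide gap between the groups. Gdnf was 11.9-fold higher in denervated dKO legs (log2 fold change 3.58, SE 0.17, adjusted p = 8.70e-09) and 14.1-fold higher in denervated WT legs (3.82, SE 0.17, adjusted p = 7.07e-09). Ordered by p over all genes, Gdnf stood at place 34 in dKO and 31 in WT.

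Ntf3, which encodes neurotrophin-3, the ligand of TrkC (chr6:126101412-126166910, minus strand), did not pass the test. It had 1.64, 2.13 and 2.70 CPM in dKO denervated legs, against 2.48, 2.19 and 1.91 CPM in dKO innervated legs, and 1.88, 2.55 and 3.15 CPM in WT denervated legs, against 2.61, 2.56 and 1.78 CPM in WT innervated legs. The groups overlap in both genotypes, and the 95% intervals of the log2 fold change ran from -0.52 to 0.47 in dKO and from -0.36 to 0.62 in WT. Cntf, which encodes ciliary neurotrophic factor, a cytokine known from Schwann cells (chr19:12763660-12765632, minus strand), was near the depth limit at 7 to 20 counts per library. It ranged from 0.169 to 0.260 CPM in dKO denervated legs, against 0.134 to 0.180 in dKO innervated legs, and from 0.179 to 0.210 CPM in WT denervated legs, against 0.0937 to 0.238 in WT innervated legs. Its intervals, -0.45 to 1.16 in dKO and -0.74 to 0.83 in WT, are wide, and a difference within them was not detectable at this depth. In addition, 78.9% of the exonic bases of Cntf lie in exons of Zfp91 on the same strand, so its counts are uncertain.

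Among the receptors, Ngfr had the largest change. It encodes p75, the receptor common to all neurotrophins, which Schwann cells and motor neurons are known to raise after nerve injury (chr11:95568818-95587735, minus strand). Its levels were 10.1, 10.3 and 10.1 CPM in dKO denervated legs, against 1.10, 1.47 and 1.27 CPM in dKO innervated legs. In WT they were 13.6, 8.23 and 12.4 CPM in denervated legs, against 1.30, 1.59 and 1.48 CPM in innervated legs. The dKO denervated libraries lie close together and the WT denervated ones spread widely, with replicate 2 the lowest, yet all 6 lie above every innervated library. Ngfr was 7.92-fold higher in denervated legs in dKO (log2 fold change 2.99, SE 0.18, adjusted p = 8.06e-08) and 7.84-fold higher in WT (2.97, SE 0.18, adjusted p = 8.03e-08).

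Schwann cell genes moved with the same contrast. The summed level of 11 Schwann cell markers was 40.9 to 49.1 CPM in dKO denervated legs, against 84.7 to 110.7 in dKO innervated legs, and 44.0 to 52.9 CPM in WT denervated legs, against 95.7 to 101.9 in WT innervated legs. Of the 11, 3 rose and 7 fell in dKO, and 2 rose and 7 fell in WT. Over all genes 21.9% were called higher and 20.2% lower in dKO, and 23.1% higher and 21.0% lower in WT. Each marker count in this paragraph is to be read beside these shares. Markers of other cells were read in the same way. The summed level of 4 satellite cell genes was 36.5 to 40.6 CPM in dKO denervated against 19.8 to 26.1 in dKO innervated legs, and 33.6 to 44.4 CPM in WT denervated against 25.6 to 30.3 in WT innervated legs, with 1 of 4 called higher in dKO and 2 of 4 in WT. The neutrophil sum over 4 genes was 25.5 to 34.0 CPM in dKO denervated against 3.26 to 4.15 in dKO innervated legs, and 14.1 to 24.3 CPM in WT denervated against 3.22 to 3.58 in WT innervated legs, with S100a8 the 1 gene of 4 called in each genotype. The macrophage sum over 8 genes was 174.8 to 214.3 CPM in dKO denervated against 163.1 to 184.8 in dKO innervated legs, and 164.9 to 189.6 CPM in WT denervated against 144.9 to 169.3 in WT innervated legs, with Cd68, 1 of 8, called higher in each genotype and sums that overlap in both. Fibroblast genes had 4 of 8 called lower in each genotype, endothelial genes 4 of 6 and mural genes 4 of 5, beside the 4 of 8 and 6 of 8 muscle fibre genes given above. No marker was at 0 over all libraries. The part of these cells in the changes of Ngfr, Gdnf, Bdnf and Ntf5 was not tested.

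Ntrk2 encodes TrkB, the receptor of BDNF and neurotrophin-4/5 (chr13:58806569-59133970, plus strand), and fell by a small amount. It had 6.49, 6.81 and 6.31 CPM in dKO denervated legs, against 8.67, 8.02 and 9.47 CPM in dKO innervated legs. WT denervated legs had 7.81, 6.35 and 7.56 CPM, against 9.55, 9.43 and 9.10 CPM in WT innervated legs. No denervated library reached an innervated one of its genotype, and the denervated level was 75.0% of the innervated one in dKO (log2 fold change -0.42, SE 0.10, adjusted p = 0.00495) and 77.3% in WT (-0.37, SE 0.10, adjusted p = 0.00872). Counts per gene do not separate the full-length kinase from truncated forms of TrkB.

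Ntrk3, which encodes TrkC, the receptor of neurotrophin-3 (chr7:78175959-78738012, minus strand), had 15 to 51 counts per library. Its levels were 0.551, 0.494 and 0.506 CPM in dKO denervated legs, against 0.766, 0.357 and 0.430 CPM in dKO innervated legs, and 0.490, 0.399 and 0.494 CPM in WT denervated legs, against 0.522, 0.275 and 0.629 CPM in WT innervated legs. The innervated libraries spread around the denervated ones in both genotypes. The 95% intervals of its log2 fold change ran from -0.70 to 0.69 in dKO and from -0.76 to 0.63 in WT.

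The members' log2 ratios within same-numbered libraries of a genotype show how even the changes were. Gdnf had ratios of 3.44, 3.43 and 3.82 in dKO and 3.81, 3.79 and 3.84 in WT, and was the most even of the large changes in WT. Ngfr had 3.20, 2.81 and 2.98 in dKO, and 3.39, 2.37 and 3.07 in WT. Ntf5 had -4.21, -4.40 and -5.76 in dKO, and -4.29, -3.63 and -5.21 in WT, with replicate 3 the lowest in both genotypes. The ratios of Bdnf were -0.50, -0.94 and -0.84 in dKO and -1.39, -0.83 and -0.72 in WT, and those of Ntrk2 lay between -0.59 and -0.24 in dKO and between -0.57 and -0.27 in WT. For these 5 genes all 6 pairs moved one way, which follows from denervated and innervated values that did not overlap.

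Levels of different genes were set side by side on the authors' normalized signal per kb of gene length. The order of genes depends on these lengths, which are not stated here. In WT innervated legs Ntrk3 had 12.9 per kb at 0.475 CPM and Ngfr 29.7 at 1.46 CPM, so the length used for Ntrk3 was the shorter. In GENCODE M21, however, the exons of Ntrk3 cover 30170 bases and those of Ngfr 3446. With such lengths Ntrk3 would stand lower in the order. In denervated legs Ngfr led the 8, at 209 ± 5 in dKO and 232 ± 60 in WT (SD, n = 3 each), followed by Gdnf, at 169 ± 30 in dKO and 129 ± 13 in WT, and Ntf3, at 111 ± 27 in dKO and 129 ± 31 in WT. Ntf5 was last in denervated legs of both genotypes, at 8.64 ± 3.87 per kb in dKO and 10.5 ± 3.5 in WT. In innervated legs Ntf5 led, at 224 ± 52 in dKO and 211 ± 40 in WT, followed by Ntf3, at 112 ± 14 in dKO and 119 ± 24 in WT, and Ntrk2, at 73.5 ± 6.0 in dKO and 79.0 ± 2.2 in WT. Gdnf was last in WT innervated legs at 9.23 ± 1.02 per kb, and at 14.0 ± 0.5 in dKO innervated legs stood between Ntrk3 (14.0 ± 5.9) and Cntf (10.6 ± 1.6). Neighbours in this order whose ranges overlapped were Ntrk3, Cntf and Ntf5 in denervated legs of both genotypes, Gdnf and Ntf3 in WT denervated legs, Ntrk3 and Gdnf in dKO innervated legs, and, in WT innervated legs, Bdnf and Ngfr as well as Ntrk3, Cntf and Gdnf. All other neighbours were apart in all 3 libraries of a group.

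As a share of the summed signal per kb of the 5 ligands, Ntf5 made up 2.80 ± 1.45% in dKO denervated legs, against 55.5 ± 7.6% in dKO innervated legs, and 3.64 ± 1.47% in WT denervated legs, against 54.7 ± 7.6% in WT innervated legs. Gdnf had the opposite pattern, with 51.8 ± 1.7% in dKO denervated legs, against 3.52 ± 0.29% in dKO innervated legs, and 43.7 ± 2.5% in WT denervated legs, against 2.42 ± 0.41% in WT innervated legs. The predominant ligand transcript was thus Gdnf in all 3 dKO denervated libraries and in 2 of 3 WT denervated ones, where replicate 3 had more Ntf3, and Ntf5 in all 6 innervated libraries. Ntf3 held 34.0% and 28.5% in dKO denervated and innervated legs, and 42.9% and 31.0% in WT denervated and innervated legs. The summed ligand signal itself was 325 ± 56 per kb in dKO denervated against 399 ± 43 in dKO innervated legs, and 298 ± 44 in WT denervated against 385 ± 27 in WT innervated legs. Among the 3 receptors, Ngfr made up 75.0 ± 0.4% in dKO denervated against 23.1 ± 4.5% in dKO innervated legs, and 75.6 ± 2.9% in WT denervated against 24.4 ± 2.7% in WT innervated legs. Ntrk2 made up 20.0% in dKO denervated against 64.6% in dKO innervated legs, and 20.3% in WT denervated against 65.0% in WT innervated legs. These shares restate the levels above, depend on the same gene lengths and were not tested.

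**Figure D2:**
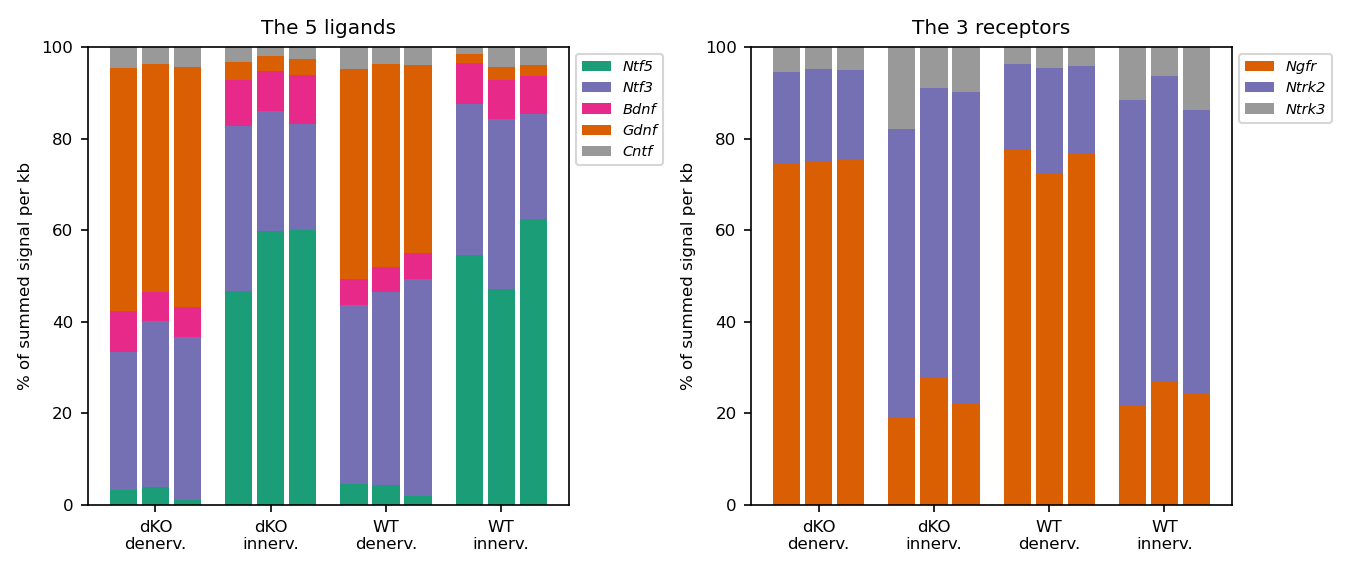
Share of each ligand (left) and each receptor (right) in the summed normalized signal per kb of its class, in percent, with 1 bar per library and replicates 1 to 3 from left to right in each group. Gdnf is a large share of the ligands in denervated legs and Ntf5 in innervated legs, and among receptors Ngfr leads in denervated and Ntrk2 in innervated legs, in both genotypes.

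Whether loss of H2A.Z altered these genes was asked in each leg. No member was called between dKO and WT, beside 0.360% of all genes in denervated legs and 0.459% in innervated legs. At an unadjusted p below 0.05 there were 2 members in denervated legs, Bdnf and Gdnf, and 1 in innervated legs, Gdnf, beside 9.78% and 10.5% of all genes. DESeq2 also called none of the 8 in either leg. Gdnf was the 1 member of 8 whose dKO and WT libraries did not overlap, in both legs, with dKO higher, beside 14.0% of genes apart in denervated and 17.1% in innervated legs. Its log2 difference, dKO over WT, was 0.37 in denervated legs (95% interval 0.06 to 0.67, edgeR adjusted p = 0.386) and 0.61 in innervated legs (0.19 to 1.03, adjusted p = 0.270), so neither passed the correction. Bdnf differed by 0.46 in denervated legs (0.07 to 0.84, adjusted p = 0.402) and by 0.24 in innervated legs (-0.13 to 0.60, adjusted p = 0.663), and its groups overlapped in both.

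For the other members the intervals bound the difference. The interval of Ntrk2, dKO over WT, was -0.36 to 0.07 in denervated and -0.32 to 0.11 in innervated legs, and that of Ngfr -0.51 to 0.18 in denervated and -0.60 to 0.24 in innervated legs. Ntf5 had an interval of -1.14 to 0.50 in denervated and -0.44 to 0.60 in innervated legs. Ntf3 had one of -0.72 to 0.26 in denervated and -0.58 to 0.42 in innervated legs. The intervals of Cntf (-0.64 to 0.88 in denervated, -1.02 to 0.64 in innervated legs) and Ntrk3 (-0.52 to 0.85 and -0.59 to 0.82) were the widest in innervated legs.

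The response to denervation was then compared between genotypes as an interaction, the dKO log2 change minus the WT one. No gene of the 17201 was called with edgeR, none with DESeq2, and 374 genes (2.17%), none of them a member, had an unadjusted edgeR p below 0.05. The edgeR fit behind these values did not use the pairing by replicate number. With the replicate block no gene was called either. Ntf5 differed by -0.40 (95% interval -1.37 to 0.57), Gdnf by -0.24 (-0.76 to 0.28), Ngfr by 0.01 (-0.52 to 0.55), Bdnf by 0.22 (-0.31 to 0.75) and Ntrk2 by -0.04 (-0.35 to 0.27). The adjusted p of each of the 8 was 1.00. The intervals of Gdnf and Ngfr are narrow beside responses of about 3 or more on this scale, while that of Ntf5 spans nearly 2 log2 units.

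**Figure D3:**
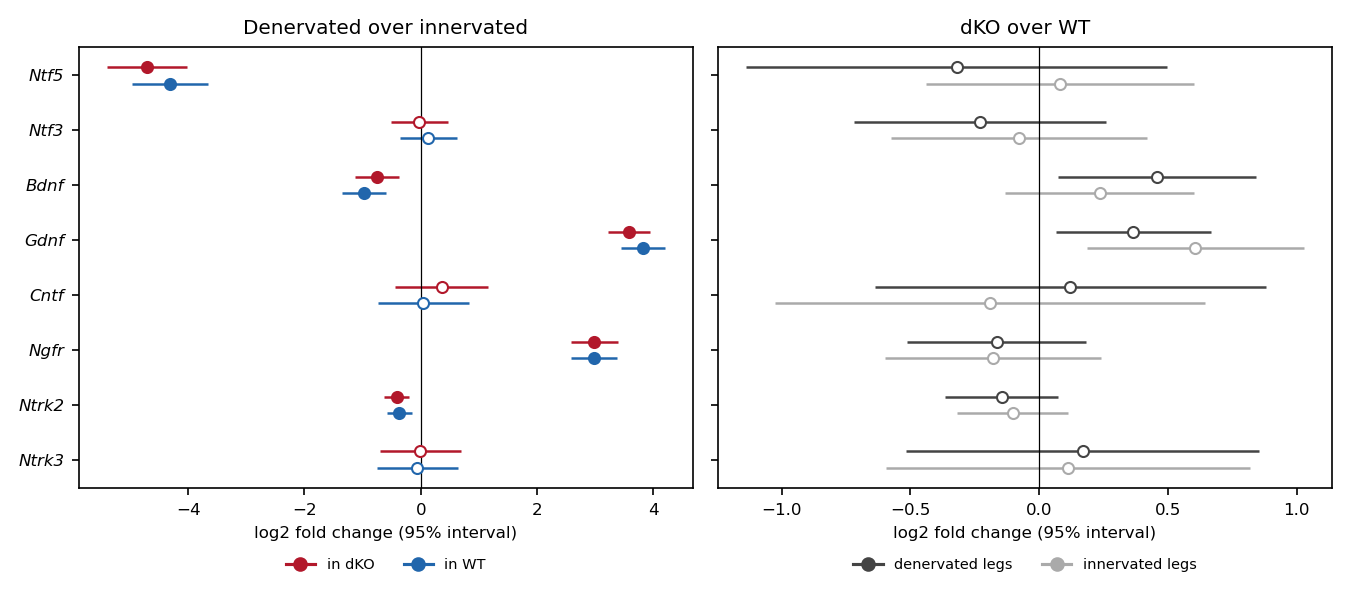
Log2 fold changes with 95% intervals for the 8 members, denervated over innervated in dKO and WT (left) and dKO over WT in denervated and innervated legs (right), with filled points for genes called at an adjusted p below 0.05 and open points for the rest. The horizontal scales of the panels differ. The 5 called genes on the left have the same direction in both genotypes, and no point on the right is filled.

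Other genes of the same pathways were counted by list, and each count is to be read beside the 42.0% of all genes called in dKO (21.9% higher, 20.2% lower) and the 44.0% called in WT (23.1% higher, 21.0% lower). Among neurotrophin receptors and co-receptors outside the members, 4 of 7 were tested, and 1 rose and 2 fell in each genotype (median log2 change -0.33 in dKO and -0.76 in WT). Sort1, which encodes sortilin, a co-receptor of p75 for neurotrophin precursors, rose by 0.51 in dKO and 0.52 in WT (edgeR adjusted p = 0.000461 and 0.000352). Its relative Sorcs1 fell by 1.00 in dKO and 1.11 in WT (adjusted p = 0.00213 and 0.000871). Sorcs2 was called at -0.47 and -0.53 (adjusted p = 0.0488 and 0.0272) in dKO and WT. The WT call of Sorcs2 was lost without WT denervated 1 or 2 or WT innervated 2 or 3 (adjusted p = 0.0537 to 0.111). Its dKO call was lost without any of 9 libraries, all but WT innervated 1, dKO denervated 1 and dKO innervated 2 (adjusted p = 0.0529 to 0.217). Without both libraries set apart above, Sorcs2 lost its call in dKO (adjusted p = 0.0787) and in WT (0.112). The dKO call was also lost with RLE scaling (0.0528) and with only the 2 groups compared (0.0520).

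The list built around precursor processing had 7 of 9 genes tested, of which 2 rose and 2 fell in dKO and 1 rose and 2 fell in WT (median -0.01 and -0.26). Among the proprotein convertases, which cut neurotrophin precursors, Pcsk6 fell by 0.73 in dKO and 1.00 in WT and Pcsk5 by 0.60 and 0.65. Furin, another convertase, rose by 0.49 in dKO (adjusted p = 0.0115), and in WT had 0.17 (adjusted p = 0.354), which became 0.31 (adjusted p = 0.0307) without the 2 libraries set apart above. The dKO call of Furin was lost without dKO innervated 1 (0.38, adjusted p = 0.0505). Mmp3, a matrix protease that can cleave neurotrophin precursors, rose by 1.48 in dKO and 1.61 in WT (adjusted p = 0.00792 and 0.00461).

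All 11 receptor adaptors were tested, and 4 rose and 2 fell in each genotype (median -0.15 in dKO and -0.02 in WT). Over all genes 21.9% were called higher and 20.2% lower in dKO, and 23.1% and 21.0% in WT. Shc1, which binds activated Trk receptors, rose by 0.91 in dKO and 0.80 in WT (adjusted p = 1.54e-06 and 4.10e-06). Gab2, a docking protein, rose by 0.54 and 0.53. Maged1, a partner of p75, rose by 0.49 in WT (adjusted p = 0.00856) and had 0.22 in dKO (adjusted p = 0.202, and 0.0443 with the replicate block). Frs3, a docking protein of Trk receptors, was called at -0.51 in WT (adjusted p = 0.0452) and had -0.22 in dKO (adjusted p = 0.397). The WT call of Frs3 was lost without WT denervated 2 or 3, any WT innervated library, dKO denervated 1 or 2, or dKO innervated 3 (adjusted p = 0.0559 to 0.168), and an antisense gene covers 16.3% of its exonic bases. Without both libraries set apart above, the WT call of Frs3 was lost as well (adjusted p = 0.107). The differences between genotypes for Furin, Maged1 and Frs3 were not called in the interaction test.

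The GDNF family had 9 of 10 genes tested, of which 2 rose and 2 fell in dKO and 2 rose and 3 fell in WT (median -0.11 and 0.17). Ret, the signalling kinase for GDNF, averaged 4.42 CPM in dKO denervated against 12.5 in dKO innervated legs, and 3.57 in WT denervated against 13.5 in WT innervated legs (log2 fold changes -1.50 and -1.92, adjusted p = 7.31e-06 and 9.88e-07). Gfra1, the preferred co-receptor of GDNF, averaged 11.5 CPM in dKO denervated against 5.90 in dKO innervated legs, and 11.3 in WT denervated against 6.03 in WT innervated legs (0.97 and 0.91, adjusted p = 5.23e-05 and 8.47e-05). The ligand and its co-receptor were therefore higher and the kinase lower in denervated legs of both genotypes. Gfra2, the neurturin co-receptor, fell by 0.49 in dKO and 0.63 in WT, and lost its dKO call without dKO denervated 1, dKO innervated 2 or dKO innervated 3 (adjusted p = 0.0547 to 0.0597). Gfra4, the persephin co-receptor, rose by 1.30 in WT, and its call in dKO (0.62, adjusted p = 0.0341) was lost when dKO denervated 3, dKO innervated 1 or dKO innervated 2 was left out (adjusted p = 0.107 to 0.138). The dKO call of Gfra4 was also lost without the filter (adjusted p = 0.0515), with only the 2 groups compared (0.0709) and without both libraries set apart above (0.103). Without dKO innervated 2, the dKO count for the family was therefore 2 in place of 4.

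Of the 16 genes of the CNTF and IL-6 family, all tested, 8 rose and 3 fell in dKO and 8 rose and 2 fell in WT (median 0.43 and 0.65, beside -0.03 and -0.00 for all genes, of which 21.9% rose in dKO and 23.1% in WT). Cntfr, the CNTF-binding chain, averaged 14.3 CPM in dKO denervated against 4.90 in dKO innervated legs, and 19.1 in WT denervated against 7.42 in WT innervated legs (log2 fold changes 1.55 and 1.37, adjusted p = 0.000615 and 0.00126). Clcf1, a second ligand of that receptor, rose by 1.05 in dKO and 0.87 in WT (adjusted p = 0.00198 and 0.00562). Stat3, the transcription factor that these receptors activate, rose by 0.85 in dKO and 0.82 in WT (adjusted p = 7.56e-05 and 9.49e-05). Across all 5 lists, no gene was called between dKO and WT in either leg or in the interaction.

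**Figure D4:**
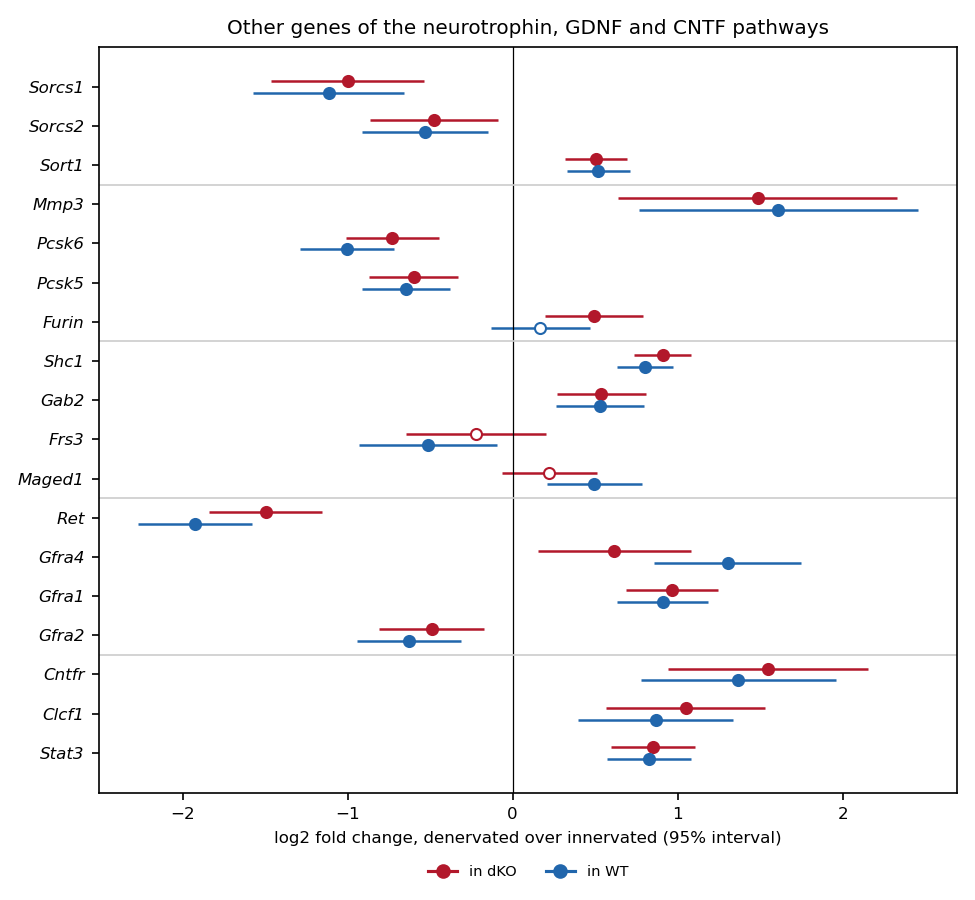
Log2 fold changes, denervated over innervated, with 95% intervals for the named genes of the pathway lists in dKO and WT, with filled points for genes called at an adjusted p below 0.05 and grey lines between lists. Ret and Sorcs1 lie far to the left and Cntfr and Mmp3 far to the right of 0 in both genotypes.

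The genes whose profile over the 12 libraries came closest to each strongly changed member were found by the root mean square difference of centred log2 CPM among 11593 genes. For Ntf5 these were Kbtbd13 (0.380 log2 units), Kcnc1, a potassium channel gene (0.395), and Sec14l5 (0.430), with log2 changes of -4.31, -4.80 and -3.90 in dKO and -4.03, -4.98 and -3.96 in WT. For Gdnf they were Chrna1, the α subunit of the muscle acetylcholine receptor (0.263), Tgif1, a transcriptional repressor gene (0.265), and an entry named Hdac4 with the gene ID ENSMUSG00000073617 (0.303). Chrna1 averaged 140 CPM in dKO denervated against 12.6 in dKO innervated legs, and 124 in WT denervated against 12.2 in WT innervated legs, a log2 change of 3.47 and 3.34. For Ngfr the closest were Hdac4 under its other gene ID, ENSMUSG00000026313 (0.195), Hip1r (0.214) and Zwint (0.244), with changes of 2.95, 2.85 and 2.90 in dKO and 2.93, 2.49 and 2.93 in WT. An entry named Hdac4, after a histone deacetylase gene known to respond to denervation, thus appears beside each risen member. The ID ENSMUSG00000073617, near Gdnf, is not in GENCODE M21. How reads were divided between the 2 entries is not given in the sources used here. Likeness of this kind rests on 1 large contrast, in which 42.0% of all genes in dKO and 44.0% in WT were called.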

How the data were processed

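RNA was measured in 12 libraries of mouse tibialis anterior, 3 per group, grouped by their labels. Per the labels' protocols, stranded libraries were prepared from total RNA after removal of ribosomal RNA. Per the submitters' processing notes, the tools were HTSeq 0.6.1, TopHat2 2.0.14, Bowtie and bcl2fastq 2.17.1.14, with the build mm9. The sources used here do not give the annotation or the strand setting. The deposited raw read counts per gene were used for all tests, and the authors' normalized signal per kb, per the file headers, for levels between genes.

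Genes were filtered by group with filterByExpr (17201 of 31057 kept, with 99.975% of counts), TMM-scaled and fitted in edgeR 4.0.16 (with limma 3.58.1 in R 4.3.3) with a mean per group, which leaves 8 residual degrees of freedom. Each contrast had a quasi-likelihood test, and p-values were adjusted by Benjamini-Hochberg over the 17201 genes, with a threshold of 0.05. The fit was first run on simulated counts with the same spread for every gene, no pairs and changes in WT denervated libraries only. The run was set to stop only if median log2 changes were off, so it does not vouch for the p-values or intervals here. CPM are counts over TMM-scaled library sizes. Floors from counts cover counting error only. SEs and the reported intervals were taken from the fold change and its quasi-likelihood F statistic, so they include the spread between libraries.

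Same-numbered legs of a genotype deviated together (r = 0.197 to 0.508 in dKO and 0.271 to 0.459 in WT, each over 0.1). Different numbers gave -0.389 to 0.088. Deviations were taken from group means of 3 libraries, so positive values for same numbers by themselves push those for different numbers down. The numbers were read as pairs for the ratios and the replicate block. The main fit, which gave the reported p-values, SEs and intervals, did not use these pairs. The labels give biological replicates without naming animals, and p-values measure the spread between these samples. Alternatives were RLE scaling, no filter, only the 2 groups compared, a replicate block, each library left out, both libraries of unusual composition left out, and DESeq2 1.42.0.

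The members and gene lists were chosen with earlier results of these data known. All 8 members are named. Some other genes that the rules below select are not reported here. Each pathway list gives up to 4 genes that averaged 1 CPM or more, were called in a denervation contrast and had the largest WT change, and each member called with a log2 change of at least 1 gives its 3 nearest genes. Coordinates and overlaps come from GENCODE M21 (GRCm38), not the authors' build. Near-identical copies were sought with BLAST 2.17.0.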

Additional observations from a re-analysis of the deposited data

How the results depend on the processing

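The 5 member calls after denervation and the 0 calls between genotypes and in the interaction held under all 18 alternatives of each denervation and genotype contrast and all 17 of the interaction, which has no fit with only 2 groups. With the replicate block, genes called after denervation were 8186 in dKO and 8498 in WT, and no member's call changed. Of the pathway genes named above, only Maged1 gained a call (0.22 in dKO, adjusted p = 0.0443). The other genes of the pathway lists were not read out singly with this block.

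Counts between genotypes were less stable. In innervated legs 79 genes became 240 without the filter, 46 with only the 2 groups, 50 without both libraries of unusual composition, 264 with DESeq2 and 27 to 113 when single libraries were left out. In denervated legs 62 genes became 252 without the filter, 4 with only the 2 groups, 289 with DESeq2 and 11 to 54 when single libraries were left out. The interaction gave 2 genes without the filter. The cause was not tested.

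Signs turned only for values that never passed the threshold. The dKO denervation value of Ntrk3 (-0.01) was 0.0032 with RLE, 0.0020 without the filter, 0.039 with the block, 0.0089 with DESeq2 and 0.40 without both libraries. Without both, Ntrk3 was also 0.035 for denervation in WT and -0.29 between genotypes in innervated legs, Ntf3 was 0.075 for denervation in dKO, and the interaction of Ngfr was -0.28. With single libraries left out, denervation values ran from -0.20 to 0.16 for Ntf3 and from -0.22 to 0.40 for Ntrk3 in dKO, and from -0.052 to 0.30 for Ntf3, -0.31 to 0.26 for Cntf and -0.32 to 0.18 for Ntrk3 in WT. Values of dKO over WT ran from -0.061 to 0.26 for Ntf5, -0.24 to 0.020 for Ntf3, -0.55 to 0.021 for Cntf and -0.29 to 0.35 for Ntrk3 in innervated legs, and from -0.061 to 0.25 for Cntf in denervated legs. Interactions ran from -0.33 to 0.047 for Ntf3, -0.17 to 0.18 for Ngfr, -0.12 to 0.037 for Ntrk2 and -0.18 to 0.46 for Ntrk3. Depth limits Cntf, Ntrk3, denervated Ntf5 and innervated Gdnf, at 7 to 51 counts per library.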

Other observations

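Ntf3 had log2 ratios, denervated minus innervated, of -0.60, -0.04 and 0.50 for replicates 1, 2 and 3 of dKO, and of -0.47, -0.01 and 0.83 for replicates 1, 2 and 3 of WT. Its ratio was negative for replicate 1, close to no change for replicate 2 and positive for replicate 3 in both genotypes, although the group means hardly differed. The labels give no batch that the numbers could mark, and this was not tested.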
